A study of Arabis alpina with 23 samples.

Results

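The small auxin up RNA (SAUR) genes of Arabis alpina, a perennial relative of Arabidopsis, were taken as every gene whose deposited description contains "saur", in upper or lower case. The rule found 59 of 34220 genes. Plants of the Pajares accession supplied 2 tissues at 4 stages. Very young axillary buds (AB) carried a single leaf primordium, and shoot apical meristems (SAM) were taken with 1 leaf primordium. Stage 1 plants were 4 weeks old and stage 2 plants 8 weeks old. Stages 3 and 4 were sampled after 4 and 7 weeks of cold at 4 °C with 16 h of light. Apart from the cold, the conditions listed for all groups were 24 °C by day and 18 °C by night, with 16 h of light and 8 h of dark. Each replicate pooled 120 to 150 buds or meristems, and no genetic change separated the groups. There were 3 libraries per tissue and stage, except 2 for AB stage 1, which gives 23 libraries in 8 groups.

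SAUR genes include some of the earliest genes that auxin induces in plants, and they encode small proteins. In Arabidopsis several SAUR proteins bind and inhibit type 2C protein phosphatases of the D clade. This keeps plasma membrane proton pumps phosphorylated and active, so that the cell wall is acidified, expansins loosen it and the cell expands. Some SAUR genes respond to brassinosteroid, light, temperature or abscisic acid, and not every member is induced by auxin.

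Libraries held 12.2 to 26.2 megareads of counts. Levels of single genes are given as CPM, the count of a gene scaled to the size of its library. The meristem gene STM (Aa_G408930) was present in both tissues, with group means of 107 to 178 CPM in buds and 132 to 210 CPM in meristems, and KNAT1 was counted in every library. WUS, of the stem cell niche, had 5.61, 7.85, 5.76 and 7.38 CPM in buds at stages 1 to 4 and 1.38, 2.26, 2.83 and 6.35 CPM in meristems. Of genes that mark organ boundaries, LOB had means of 40.3, 46, 52.7 and 4.5 CPM in buds at stages 1 to 4, against 1.93 to 4.08 CPM in meristems. Over the same stages CUC2 had 11.1, 6.73, 6.7 and 8.96 CPM in buds and 16.6, 16, 8.09 and 11.8 CPM in meristems. CUC3 had 22.1, 22.9, 26.4 and 31.1 against 23.5, 25.2, 30.4 and 28.9 CPM, and LAS 2.75, 2.53, 1.95 and 3.51 against 2.94, 3.78, 2.9 and 2.03 CPM. A pair of bud libraries stood apart in SAUR counts. Replicate 2 of AB stage 1 was above replicate 1 in 40 of the 52 members with a count there, against 51.5% of all genes tested. Replicate 3 of AB stage 3 was the lowest of its group in 28 of 49 members, against 34.5% of all genes tested.

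The gene models had the compact form typical of the family. Of the 59 models, 55 had a single coding exon and 4 had 2, and coding lengths ran from 102 to 546 bp with a median of 327 bp. The descriptions were mainly of 2 kinds. There were 46 models described as SAUR-like auxin-responsive proteins, 2 of them with the word family added, and their median coding length was 291 bp. Another 12 were described as SAUR family proteins, with a median of 438 bp. The last, Aa_G314290, was described as SAUR37. The deposited files do not pair the other genes with Arabidopsis SAUR numbers, so members are named by their identifiers.

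Most members sat beside other members. Joining members at most 50 kb apart gave 26 places, of which 5 held 3 or more members and 36 members in all, while 19 members were alone. The place with the most members held 11 on chromosome 1, in 54.6 kb from 26989183 to 27043758 of the version 5 assembly. On chromosome 3, 10 members lay from 1650430 to 1685408, and on chromosome 8 there were 8 from 15520222 to 15558605. Smaller places held 4 members on chromosome 7, from 4877999 to 4934165, and 3 on chromosome 8, from 38253744 to 38276302. Every model was placed at a single locus and none overlapped another model. Neighbouring copies may still share reads, and how alike their sequences are was not analysed here, so values of single members within a place are uncertain.

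More SAUR genes were expressed in young buds of stages 1 to 3 than in buds of stage 4 or in meristems. Levels in TPM, scaled to library size as CPM is, take coding length into account. Taking a group mean of at least 1 TPM as expressed, 41, 34, 27 and 7 of the 59 members were expressed in buds at stages 1 to 4 in turn. In meristems the numbers were 9, 8, 7 and 8. Over the same stages 59%, 59.2%, 58.4% and 56.4% of all genes were expressed in buds and 56.2%, 56.9%, 55.6% and 56.7% in meristems. In at least 1 group, 42 members (71.2%) were expressed, against 62.3% of all genes. A threshold of 0.5 TPM gave 48 members, 5 TPM gave 16, and at least 10 counts in every library of a group gave 26. The AB stage 1 number, and with it the number in at least 1 group, uses means of 2 libraries. Some members reached 1 TPM there through replicate 2 alone. Aa_G253690 had 0 and 3.59 TPM in replicates 1 and 2, and Aa_G253680, expressed in no other group, had 0.766 and 4.87 TPM.

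The expressed members were distributed unevenly over the groups. There were 30 members at 1 TPM or more in buds of stages 1 to 3 and in no other group, and 3 members (Aa_G137910, Aa_G329260 and Aa_G64780) were expressed in all 8 groups. Some of the 30, such as Aa_G253640 and Aa_G465030, reached 1 TPM in AB stage 1 alone, a mean of 2 libraries. Another 17 members reached 1 TPM in no group. Of these, 4 had no count in any library (Aa_G22130, Aa_G223830, Aa_G253760 and Aa_G465050), with coding lengths of 102 to 165 bp. A count was found for 52, 51, 49 and 30 members in buds of stages 1 to 4 and for 34, 32, 23 and 29 in meristems. These patterns were counted over the members only, so how usual they are among all genes is not given here.

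**Figure D1:**
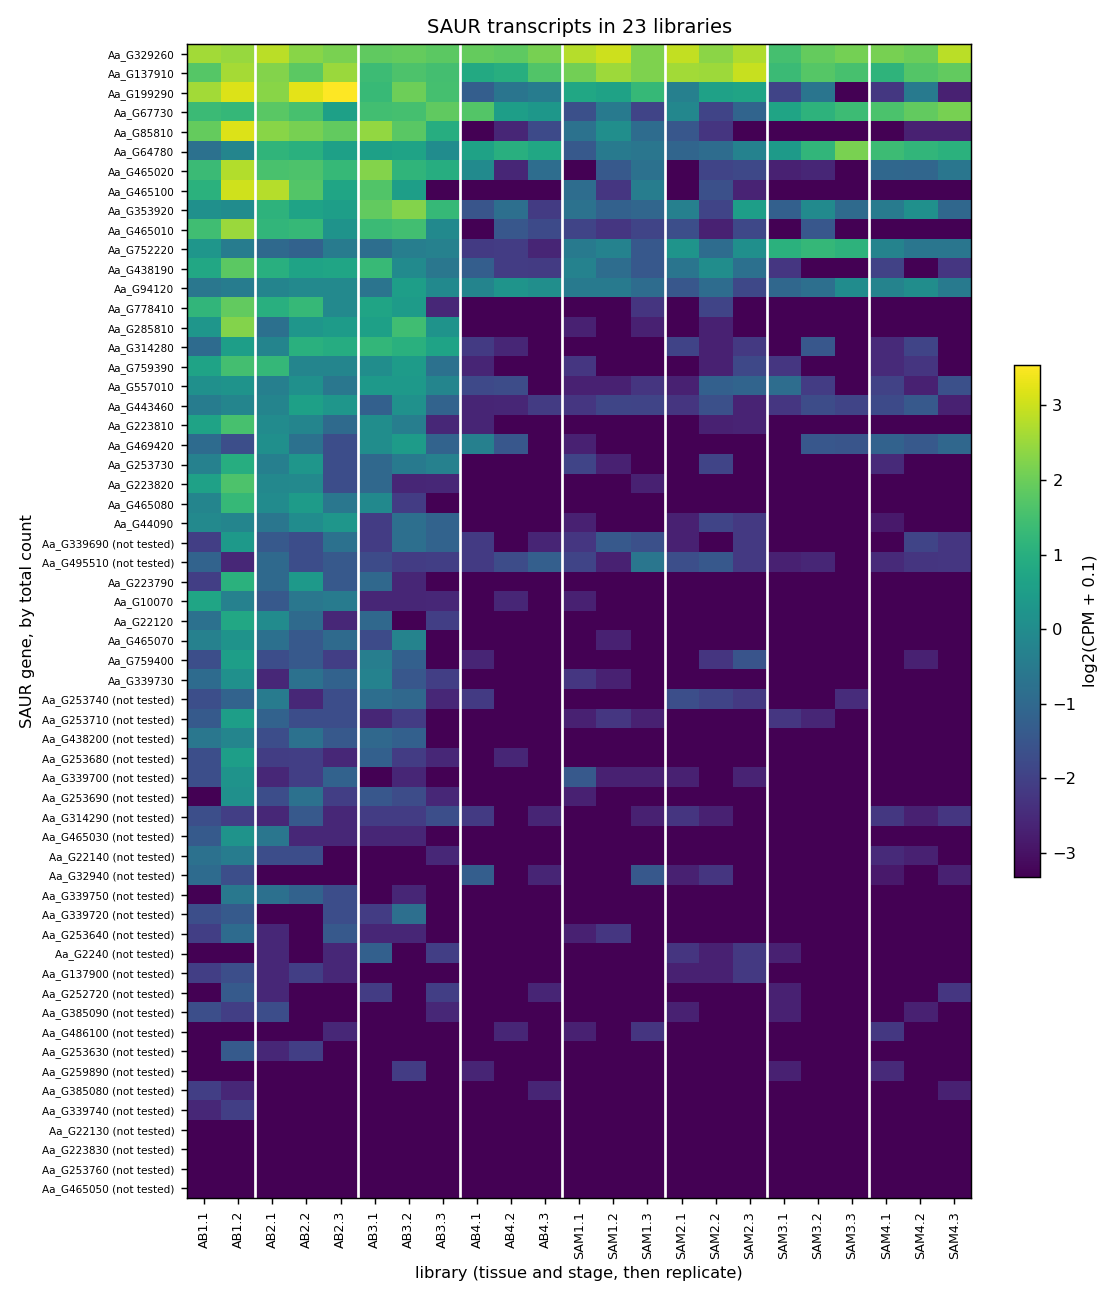
CPM on a log2 scale (0.1 added) for 59 SAUR genes (vertical axis, ordered by total count) in 23 libraries (horizontal axis, tissue, stage and replicate). Below the uppermost rows, counts lie mainly in buds of stages 1 to 3, and the 4 lowest rows had no count.

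Per unit of coding length, the SAUR transcripts of highest mean level were those of genes found in both tissues. Aa_G137910 (chromosome 7, 326820 to 327116, minus strand) averaged 13.5 TPM over the 8 group means, and Aa_G329260 (chromosome 1, 19237844 to 19238293, minus strand) averaged 11.4 TPM. Next came Aa_G199290 at 8.49 TPM, Aa_G85810 at 6.74 TPM, Aa_G67730 at 5.4 TPM and Aa_G465100 at 4.13 TPM. Aa_G465020, Aa_G438190, Aa_G64780 and Aa_G465010 had 3.48, 3.3, 3.18 and 2.61 TPM. The order by level changed with tissue. In buds at stage 1 the mean level was 22.8 ± 13.4 TPM (SD, n = 2) for Aa_G85810, 22.1 ± 6.3 TPM for Aa_G199290 and 16.4 ± 6.96 TPM for Aa_G137910, and the libraries of these genes overlapped. In meristems at stage 3 Aa_G137910 had 9.38 ± 1.14 TPM (n = 3) and Aa_G329260 7.81 ± 1.59 TPM, while Aa_G85810 was at 0 counts in all 3 libraries.

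The summed SAUR level was highest in buds of stages 1 to 3. In buds at stage 1 the summed CPM was 53.3 and 103 in the 2 libraries. The bud means were 57.6 ± 5.74 (SD, n = 3) at stage 2, 43.2 ± 11.8 at stage 3 and 13.6 ± 1.23 at stage 4. Meristem means were 18.7 ± 2.09, 19.6 ± 2.36, 15.5 ± 3.02 and 18 ± 2.2. Every bud library of stages 1 to 3 lay above every meristem library. The bud mean was 4.17, 2.94, 2.79 and 0.752 times the meristem mean at stages 1 to 4. Without replicate 2 of AB stage 1 the stage 1 ratio was 2.85, and without replicate 3 of AB stage 3 the stage 3 ratio was 3.23. In bulk tissue, fewer cells of a type and less RNA per cell cannot be told apart.

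The SAUR-like auxin-responsive members held most of this difference. Their summed CPM in buds averaged 61 ± 33.7 (SD, n = 2), 38.5 ± 3.97, 25.9 ± 10.6 and 2.17 ± 0.518 over stages 1 to 4, and in meristems 4.92 ± 0.819, 3.78 ± 1.01, 0.882 ± 0.702 and 1.51 ± 0.277. Bud means were 12.4, 10.2, 29.4 and 1.44 times those of meristems, and without replicate 2 of AB stage 1 the stage 1 ratio was 7.57. The 12 SAUR family proteins had sums of 16.7 ± 1.29 (SD, n = 2), 18.9 ± 2.9, 17.2 ± 2.47 and 11.3 ± 0.65 CPM in buds and 13.7 ± 2.87, 15.7 ± 2.82, 14.6 ± 3.44 and 16.4 ± 2.16 CPM in meristems. Their ratios were 1.22, 1.21, 1.18 and 0.689. Aa_G137910 and Aa_G329260 held much of these sums, with 4.62 and 5.68 CPM in buds and 4.79 and 6.44 CPM in meristems at stage 1. The ratios therefore rest largely on these genes and do not describe each SAUR family protein. The difference between the kinds of description was not tested.

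**Figure D2:**
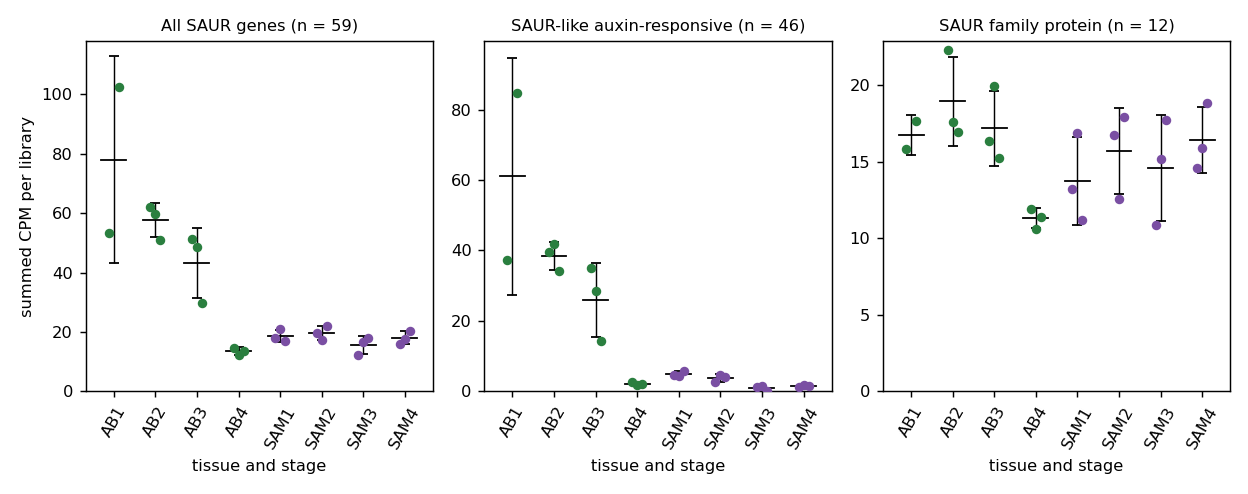
Summed CPM of SAUR genes in each library (points) by tissue and stage, with the group mean (line) and SD (bars), for all 59 members, the 46 SAUR-like auxin-responsive members and the 12 SAUR family proteins. The SAUR-like mean was 61 in buds at stage 1 and 2.17 at stage 4, and its meristem means were at most 4.92.

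Gene by gene, most SAUR genes that could be tested were higher in buds than in meristems at stages 1 to 3. Of 59 members, 31 passed the filter on low counts. A gene can pass through its high group alone, so these 31 do not stand for the family. With edgeR's quasi-likelihood test and a Benjamini-Hochberg adjusted p below 0.05, 24 were higher in buds at stage 1 and 0 lower, against 18.2% of all 21414 genes tested called higher and 14.6% lower. At stage 2, 24 were higher and 0 lower (all genes 19.9% and 17.6%), and at stage 3, 22 were higher and 2 lower (22.1% and 22.1%). At unadjusted p below 0.05, 0 were lower at stage 1 and 0 at stage 2, and DESeq2 called 0 and 0 lower. Of all genes tested, 9020 and 9793 passed that unadjusted threshold in either direction. The median log2 difference over the tested members was 3.98, 3.05 and 2.36 at stages 1 to 3 with groups at 0 set to their bound, and 3.98, 3.67 and 4.44 as fitted. The bound takes 3 counts over a group as the floor. Over all genes tested the medians were -0.02, 0.00 and -0.01. With no filter, 55 members entered the test and 32, 29 and 28 were called, and the share of all genes in that fit is not given here. Without replicate 2 of AB stage 1, 15 members were called at stage 1.

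Most of the members with a count, tested or not, had the higher mean in buds. Among the 53 members with a count at stage 1, 49 had the higher mean in buds, as had 47 of 52 at stage 2 and 45 of 49 at stage 3, where 48.6%, 50.9% and 51.8% of all genes with a count did. All bud libraries were above all meristem libraries in 39 members at stage 1, 34 at stage 2 and 25 at stage 3, against 26.2%, 21.6% and 23% of all genes with a count. They were below in 0, 1 and 1 members, against 25.3%, 19.2% and 21.7%. The 28 members not tested had summed CPM of 7.94 ± 5.15 (n = 2), 3.44 ± 0.581 and 2.28 ± 0.818 in buds at stages 1 to 3 and 0.898 ± 0.36, 0.76 ± 0.129 and 0.202 ± 0.164 in meristems. These sums rest on 61 and 164 counts in the AB stage 1 libraries and on 7, 2 and 1 in those of SAM stage 3.

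**Figure D3:**
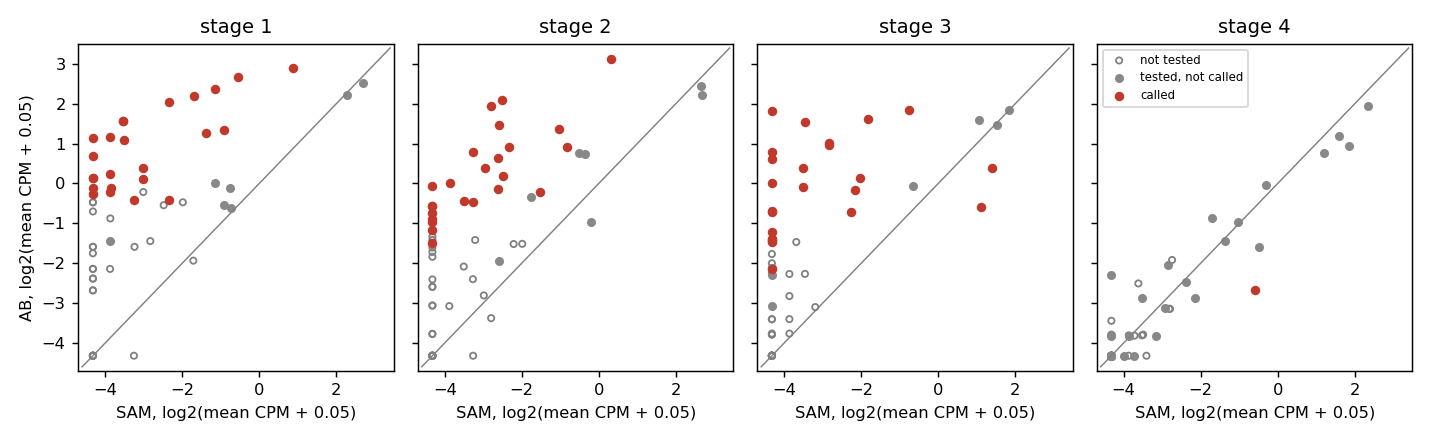
Group mean CPM of each SAUR gene in axillary buds (vertical axis) against meristems (horizontal axis), both as log2(mean CPM + 0.05), at stages 1 to 4, marked by whether edgeR called the gene, did not call it or did not test it; the line marks equal levels. At stages 1 to 3, 49, 47 and 45 members lie above the line, and at stage 4 14 do.

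A core of 17 members was called higher in buds at each of stages 1, 2 and 3. One of them was Aa_G85810 (chromosome 8, 15142195 to 15142485, minus strand), a SAUR-like gene that stood alone. It had 52 and 126 counts in the AB stage 1 libraries, 71, 61 and 52 at stage 2, 80, 50 and 26 at stage 3 and 0, 1 and 3 at stage 4. In meristems it had 9, 17 and 8 counts at stage 1, 5, 2 and 0 at stage 2, 0, 0 and 0 at stage 3 and 0, 1 and 1 at stage 4. Bud and meristem libraries did not overlap at stages 1 to 3. Its difference was log2 3.31, SE 0.55, edgeR adjusted p = 0.000126 at stage 1 and log2 4.96, SE 0.65, edgeR adjusted p = 8.72e-06 at stage 2. At stage 3 buds were at least 53-fold higher (edgeR adjusted p = 3.67e-06).

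Aa_G199290 (chromosome 2, 30453690 to 30454043, minus strand), also SAUR-like and alone, had counts of 84 and 126 at AB stage 1, 71, 135 and 165 at stage 2, 36, 59 and 39 at stage 3 and 5, 8 and 10 at stage 4. Meristem counts were 29, 26 and 43, then 13, 26 and 25, then 3, 8 and 0, then 3, 11 and 1. Buds held more than meristems at stages 1 to 3 without overlap. The difference was log2 2.04, SE 0.50, edgeR adjusted p = 0.00344 at stage 1, log2 2.83, SE 0.48, edgeR adjusted p = 0.000112 at stage 2 and log2 3.60, SE 0.63, edgeR adjusted p = 0.000144 at stage 3. Without replicate 2 of AB stage 1 the stage 1 call was lost (edgeR adjusted p = 0.0565).

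Several core members were at or near 0 in meristems. Aa_G285810 had 16 and 67 counts at AB stage 1, 7, 16 and 18 at stage 2 and 21, 39 and 15 at stage 3, and at most 1 count in any library of AB stage 4 or of a meristem. Aa_G778410 had 31 and 51, then 28, 33 and 12, then 23, 19 and 1 counts in the same bud groups, 0, 0 and 0 in AB stage 4, and at most 3 in a meristem library. The stage 1 ratio of buds to meristems was 79.6 (21.3 to 668) for Aa_G285810 and 78.6 (21.1 to 660) for Aa_G778410, with exact binomial 95% intervals that cover counting error only. At stage 3, with meristems at 0, buds were at least 25.5-fold higher for Aa_G285810 (edgeR adjusted p = 0.000138) and at least 14.6-fold higher for Aa_G778410 (edgeR adjusted p = 0.00345).

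The 11 members on chromosome 1 had a summed CPM of 22.2 ± 14.7 (SD, n = 2), 11.8 ± 4.58, 7.93 ± 5.13 and 0.637 ± 0.304 in buds at stages 1 to 4 and of 0.842 ± 0.447, 0.396 ± 0.158, 0.129 ± 0.178 and 0.441 ± 0.096 in meristems. Bud means were 26.4, 29.9, 61.3 and 1.44 times those of meristems. Without replicate 2 of AB stage 1 the stage 1 ratio was 14.1. The stage 3 ratio rests on 1, 5 and 0 counts in the SAM libraries and was 285 without replicate 2 of SAM stage 3. Of its 8 tested members, which could pass the filter through buds alone, 8, 8 and 7 were called higher in buds at stages 1, 2 and 3. The spread between bud libraries was wide, with 168 and 461 counts in those of stage 1.

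Within it, plus-strand Aa_G465100 had 28 and 116 counts at AB stage 1, 98, 45 and 22 at stage 2, 47, 20 and 0 at stage 3 and 0, 0 and 0 at stage 4. In meristems it had 8, 2 and 12 at stage 1, 0, 4 and 1 at stage 2 and none later. Bud replicate 3 of stage 3 was at 0 like the meristems. Its stage 1 difference (log2 3.63, SE 1.15, edgeR adjusted p = 0.0314) was lost under 7 of 10 alternatives. These were leaving out replicate 2 of AB stage 1 (edgeR adjusted p = 0.2996) or any 1 library of SAM stage 1 (edgeR adjusted p = 0.0523 to 0.0974), no filter on low counts (edgeR adjusted p = 0.0511), the replicate block (edgeR adjusted p = 0.0965) and DESeq2 (adjusted p = 0.102). Its stage 3 call (edgeR adjusted p = 0.0188) was lost with only the compared groups in the fit (edgeR adjusted p = 0.123) and without replicate 1 of AB stage 3 (edgeR adjusted p = 0.0672) or of SAM stage 3 (edgeR adjusted p = 0.0517).

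Aa_G465020 had 35 and 93, then 42, 43 and 33, then 71, 32 and 26, then 14, 1 and 7 counts in buds of stages 1 to 4. Meristem counts were 0, 5 and 9, then 0, 3 and 3, then 1, 1 and 0, then 10, 7 and 10. Buds exceeded meristems without overlap at stages 1 to 3. The difference was log2 4.10, SE 0.73, edgeR adjusted p = 0.000174 at stage 1 and log2 4.51, SE 0.79, edgeR adjusted p = 0.000136 at stage 2, and at stage 3 the ratio was 65.7 (17.8 to 548) (edgeR adjusted p = 5.50e-05). Its neighbour Aa_G465010, 1216 bp away on the same strand, had 37 and 79 counts at AB stage 1 and 3, 2 and 3 at SAM stage 1 (log2 4.73, SE 0.75, edgeR adjusted p = 6.76e-05).

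On the minus strand of the same place, Aa_G223810, Aa_G223820 and Aa_G223790 had 61, 62 and 30 counts over both libraries of AB stage 1 and 0, 1 and 0 over the 3 of SAM stage 1. Buds were at least 39-fold higher for Aa_G223810 (edgeR adjusted p = 9.90e-05) and at least 19.2-fold higher for Aa_G223790 (edgeR adjusted p = 0.0164). The 30 counts of Aa_G223790 were 2 and 28 in replicates 1 and 2, so its bound rests mainly on replicate 2. The call of Aa_G223790 was lost with DESeq2 (adjusted p = 0.224), with only the compared groups (edgeR adjusted p = 0.0832) and without replicate 2 of AB stage 1 (edgeR adjusted p = 0.297). At stage 3 the calls of Aa_G223820 and Aa_G465080 (edgeR adjusted p = 0.0492 and 0.0491) missed the threshold with the replicate number as a block (edgeR adjusted p = 0.0519 and 0.0595) or with only the compared groups (edgeR adjusted p = 0.0884 and 0.106). They were also lost without replicate 1 of AB stage 3 (edgeR adjusted p = 0.218 and 0.264) or without any 1 library of SAM stage 3 (edgeR adjusted p = 0.0831 to 0.11 and 0.0834 to 0.109), and that of Aa_G465080 without replicate 2 of AB stage 3 (edgeR adjusted p = 0.0509) and with DESeq2 (adjusted p = 0.294).

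The other places with 3 or more members were also higher in bud sums at stages 1 and 2, with fewer counts, while members in places of 2 had a bud to meristem ratio of 0.949 at stage 2. The 10 members on chromosome 3 summed to 8.68 ± 5.31 (SD, n = 2), 4.67 ± 0.709, 3.68 ± 1.94 and 0.296 ± 0.234 CPM in buds of stages 1 to 4, which was 9.61 and 4.97 times the meristem means at stages 1 and 2. Without replicate 2 of AB stage 1 the stage 1 ratio was 5.46. At stage 3 they had 81, 62 and 22 counts in the bud libraries and 4, 0 and 0 in those of meristems, and at stage 4 14 and 16 counts in all. Of these, 4 were tested (Aa_G438190, Aa_G759390, Aa_G759400 and Aa_G339730). The 8 members on chromosome 8 summed to 4.06 ± 3.55 (SD, n = 2), 1.8 ± 0.594, 1.35 ± 0.372 and 0.0639 ± 0.0628 CPM, or 18.3, 8.18 and 15.5 times meristems at stages 1 to 3. The stage 1 ratio was 6.98 without replicate 2 and 29.6 without replicate 1 of AB stage 1. Meristems had 4 counts in all at stage 3, and at stage 4 buds had 3 and meristems 2. Aa_G253730 alone of those passed the filter, with 10 and 26, then 10, 16 and 3, then 6, 9 and 10 counts in the first bud groups and 0, 0 and 0 in AB stage 4. The 3 members further along chromosome 8 had 14 and 32 counts in the AB stage 1 libraries and 0, 0 and 0 in those of SAM stage 1.

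The place of 4 on chromosome 7 had bud to meristem ratios of 3.59, 1.17, 0.728 and 0.326. It holds SAUR family protein Aa_G752220 and SAUR-like Aa_G557010, which is named here after its values were seen. Aa_G557010 had bud means of 1.02, 0.741, 1.06 and 0.129 CPM and meristem means of 0.0733, 0.248, 0.193 and 0.143 CPM. Close neighbours could differ in level, as for Aa_G137910 and the untested Aa_G137900, 824 bp apart on opposite strands, with 1459 and 13 counts over all libraries.

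**Figure D4:**
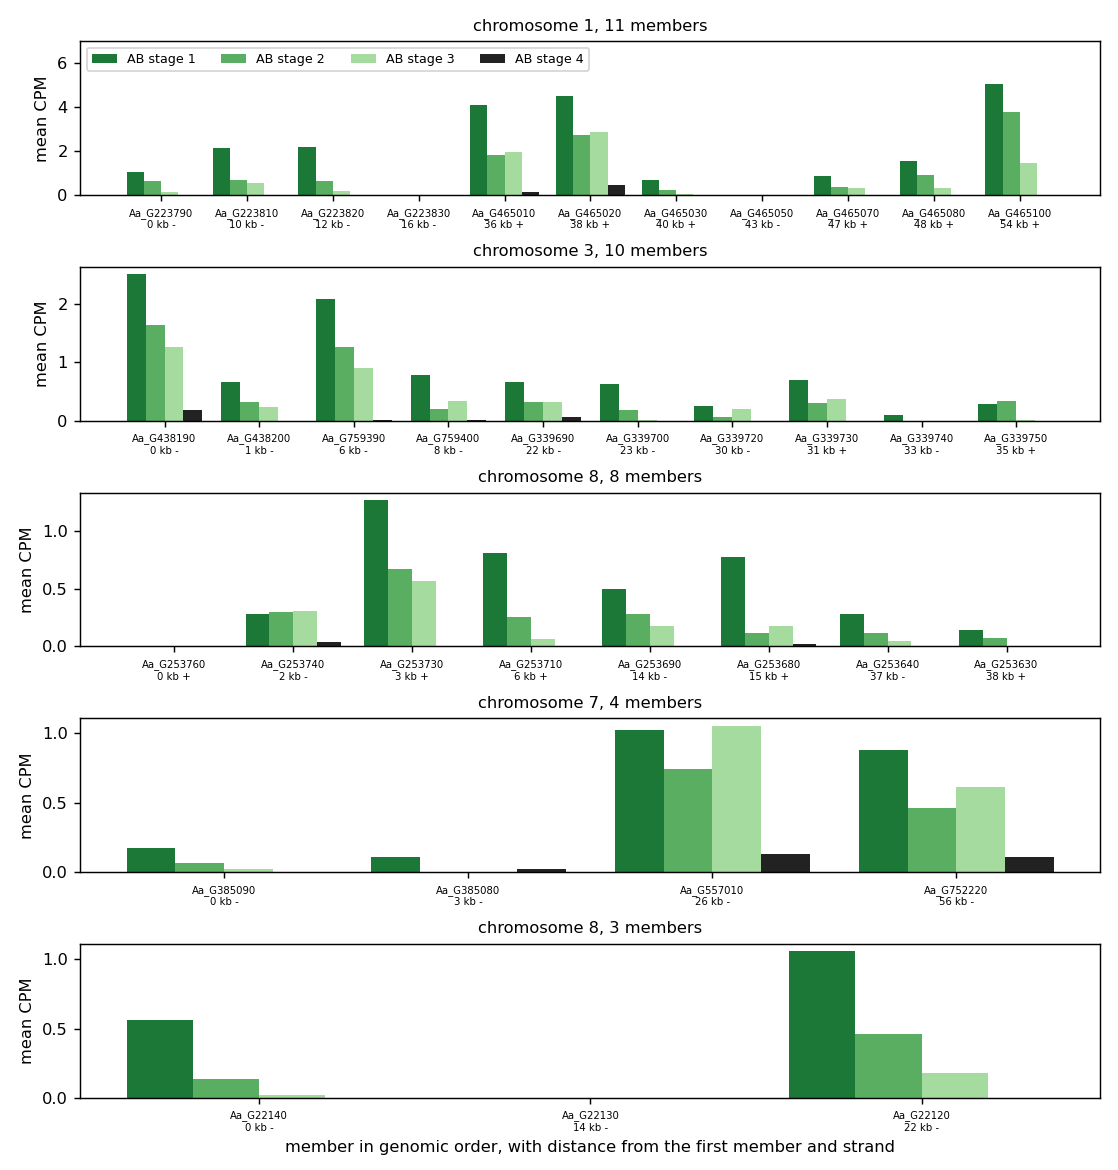
Mean CPM of each SAUR gene in axillary buds of stages 1 to 4 (bars) in the 5 places with 3 or more members, in genomic order with the distance in kb from the first member and the strand. The bars of stage 4 are low in each place, where the summed stage 4 means were 0.637, 0.296, 0.0639, 0.258 and 0 CPM for the places of 11, 10, 8, 4 and 3 members.

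In buds, few members were called from stage 1 to 2 or from stage 2 to 3, and stage 1 was not tested against stage 3. From stage 1 to 2 edgeR called 0 members, near the share of all genes (0.743% higher and 0.42% lower), and DESeq2 called 0. An unadjusted p below 0.05 was found for 4 members, a share near the 2809 of all 21414 genes. The mean was lower at stage 2 in 40 of the 54 members with a count (all genes 48.7%). In 15 members all stage 2 libraries were below both of stage 1 and in 3 above (all genes 13.1% and 12.4%), and the median log2 change over the tested members was -0.71, against 0.01 over all genes. From stage 2 to 3 an unadjusted p below 0.05 was found for 1 higher and 5 lower members, against 7481 of 21414 genes in either direction. By edgeR 2 members fell (all genes 12% lower) and 0 rose (10.2%), and DESeq2 called 0 higher. Those that fell were Aa_G199290 (log2 -1.51, SE 0.45, edgeR adjusted p = 0.0204) and Aa_G10070, with 21 counts at stage 2 and 3 at stage 3 (edgeR adjusted p = 0.0357). Both calls were lost without replicate 2 or 3 of AB stage 2 or replicate 1 or 3 of AB stage 3, and that of Aa_G10070 also without replicate 2 of AB stage 3 and with DESeq2. The mean was lower at stage 3 in 33 of 52 members with a count (all genes 52%). All stage 3 libraries were below those of stage 2 in 11 and above in 1 (all genes 17.2% and 14.2%).

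From stage 3 to 4, between 4 and 7 weeks of cold, 21 of the 31 tested members fell in buds and 0 rose, against 24.2% of all genes tested lower and 23% higher. At unadjusted p below 0.05, 22 were lower and 0 higher, where 11400 of 21414 genes passed in either direction. DESeq2 called 20 lower and 0 higher. All 17 core members were among those that fell. They had been picked partly by their level in the same AB stage 3 libraries, so this is not independent of the earlier calls. The median log2 change over the tested members was -2.60 with groups at 0 set to their bound and -3.66 as fitted, and over all genes it was -0.02. A member can pass the filter on low counts through earlier bud groups alone, which favours a fall into stage 4 among the 31. The numbers called and the medians of the tested members therefore do not stand for the family. Among the 52 members with a count, all stage 4 libraries were below all stage 3 libraries in 22 and above in 0 (all genes 25.7% and 23.8%).

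Aa_G85810 went from 3.49 ± 1.73 to 0.0858 ± 0.097 CPM (log2 -5.23, SE 0.72, edgeR adjusted p = 1.15e-05). Aa_G353920, a SAUR family protein (chromosome 5, 26501873 to 26502388, plus strand), had 55, 70 and 33 counts at AB stage 3 and 4, 7 and 2 at stage 4. The libraries did not overlap (log2 -3.63, SE 0.56, edgeR adjusted p = 2.60e-05). Aa_G465010 also fell (log2 -3.66, SE 0.75, edgeR adjusted p = 0.00054), as did Aa_G199290 (log2 -2.60, SE 0.56, edgeR adjusted p = 0.000816). Of the members at 0 in AB stage 4, Aa_G285810 was at least 26.4-fold lower there than at stage 3 (edgeR adjusted p = 0.000106) and Aa_G778410 at least 15.1-fold lower (edgeR adjusted p = 0.00277).

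At stage 4 few members differed between the tissues, and so did few of all genes. The numbers called higher and lower in buds were 0 and 1, a share near that of all genes (1.35% and 2.12%). At unadjusted p below 0.05 they were 1 and 2, where 3485 of 21414 genes passed in either direction. DESeq2 called 0 and 1. Among the 34 members with a count, 14 had the higher mean in buds (all genes 50.1%), 1 was above meristems without overlap (11.6%) and 2 were below (12.2%). The 1 call was Aa_G752220 (chromosome 7, 4933740 to 4934165, minus strand), with 2, 2 and 1 counts in buds and 19, 10 and 10 in meristems (log2 -2.45, SE 0.54, edgeR adjusted p = 0.0121). It was lost without replicate 3 of AB stage 4 (edgeR adjusted p = 0.0608).

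**Figure D5:**
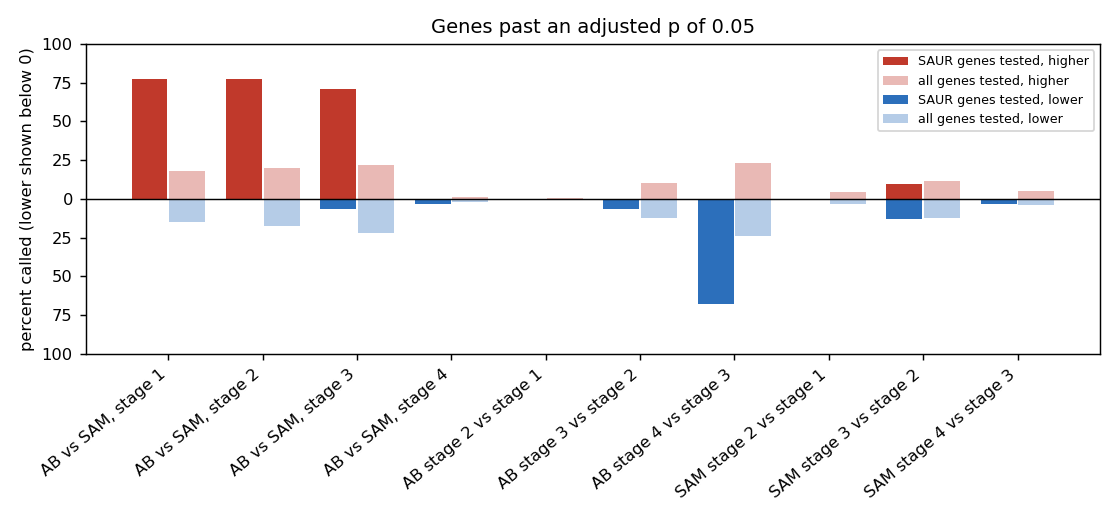
Percent of the 31 SAUR genes tested and of all 21414 genes tested that edgeR called at an adjusted p below 0.05 in each comparison of 2 groups, with higher calls above 0 and lower calls below 0. SAUR calls lie above 0 at stages 1 to 3 of buds against meristems (24, 24 and 22 genes) and below 0 in buds from stage 3 to 4 (21 genes).

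Markers of tissue and cell type were read beside the fall in buds. LOB was at 52.7 ± 10.9 CPM in AB stage 3 and 4.5 ± 1.21 CPM in AB stage 4 (SD, n = 3). The other boundary genes had the higher mean at stage 4, with 1.95 ± 0.569 and 3.51 ± 0.252 CPM for LAS, 6.7 ± 0.741 and 8.96 ± 0.891 CPM for CUC2 and 26.4 ± 3.02 and 31.1 ± 2.47 CPM for CUC3. The 23 floral identity genes summed to 195 to 216 TPM per library in buds of stages 1 to 3 and to 354 to 424 TPM in AB stage 4. Between AB stages 3 and 4, 6 of the 13 tested rose and 1 fell, where 23% of all genes rose and 24.2% fell. The 36 genes of the trichome list summed to 502 to 548 TPM in AB stage 3 and 411 to 439 TPM in AB stage 4, and 13 of 28 tested fell and 3 rose. The 13 vascular genes summed to 128 to 139 TPM in AB stage 3 and 100.7 to 104 TPM in AB stage 4, with 2 of 10 tested lower, a share near that of all genes. Of the tested photosynthesis, stomatal lineage and shoot epidermis genes, 9 of 36, 1 of 9 and 0 of 5 fell and 4, 3 and 2 rose. The part of these transcripts in the SAUR result was not tested.

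In meristems the calls of SAUR genes went in both directions. From stage 1 to 2 the number called by edgeR was 0 (all genes 4.52% higher and 3.06% lower). An unadjusted p below 0.05 was found for 2 members and for 4783 of 21414 genes. DESeq2 called 1 (Aa_G85810, lower, adjusted p = 0.0355). From stage 2 to 3, 3 members rose and 4 fell (all genes 11.9% and 12.3%), a share near the background. In that step the summed CPM of the SAUR-like members went from 3.78 ± 1.01 to 0.882 ± 0.702. That of the SAUR family proteins went from 15.7 ± 2.82 to 14.6 ± 3.44, and neither sum was tested. From stage 3 to 4, 1 fell and 0 rose (4.04% and 5.14%), and DESeq2 called 0 higher. At unadjusted p below 0.05, 1 was higher and 1 lower, against 5065 of 21414 genes in either direction.

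The members that rose in meristems were SAUR family proteins. Aa_G64780 (chromosome 2, 33327465 to 33327914, minus strand) had 7, 8 and 12 counts in SAM stage 2 and 22, 33 and 53 in SAM stage 3 (log2 2.32, SE 0.42, edgeR adjusted p = 0.000413). Aa_G67730 (chromosome 6, 410274 to 410657, minus strand) had 15, 3 and 6, then 27, 31 and 30 (log2 2.14, SE 0.50, edgeR adjusted p = 0.00363). Aa_G752220 had 20, 8 and 16, then 36, 34 and 25 (log2 1.35, SE 0.38, edgeR adjusted p = 0.0121). In CPM no library of stage 2 overlapped stage 3 for these genes. The rise of Aa_G752220 was lost without replicate 2 of SAM stage 2 (edgeR adjusted p = 0.0646).

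After 7 weeks of cold these genes took different courses in the meristem. Aa_G67730 had 75, 66 and 77 counts and a mean of 3.59 ± 0.676 CPM, against 2.02 ± 0.493 CPM at stage 3 (edgeR adjusted p = 0.22). Aa_G64780 was at 2.23 ± 0.264 CPM, against 2.6 ± 1.62 CPM (edgeR adjusted p = 0.81). Aa_G752220 fell from 2.11 ± 0.135 to 0.612 ± 0.106 CPM (log2 -1.76, SE 0.38, edgeR adjusted p = 0.00553).

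The members that fell in meristems from stage 2 to 3 included those of highest mean TPM. Aa_G137910 had 111, 104 and 127 counts at SAM stage 2 and 44, 48 and 34 at stage 3 (log2 -1.19, SE 0.27, edgeR adjusted p = 0.00279). Aa_G329260 had 139, 91 and 107, then 50, 55 and 51 (log2 -0.83, SE 0.25, edgeR adjusted p = 0.0178). The others were Aa_G199290 (log2 -2.27, SE 0.68, edgeR adjusted p = 0.019) and Aa_G438190, with 35 counts at stage 2 and 2 at stage 3 (edgeR adjusted p = 0.00591). The call of Aa_G329260 was lost without replicate 1 of SAM stage 2 (edgeR adjusted p = 0.0853) or of SAM stage 3 (edgeR adjusted p = 0.0917). That of Aa_G199290 was lost without replicate 2 or 3 of SAM stage 2 or replicate 1 or 3 of SAM stage 3 (edgeR adjusted p = 0.0525 to 0.07999).

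Aa_G137910 and Aa_G329260 were the tested members with no edgeR call between buds and meristems at any stage. Their log2 differences ran from -0.49 to -0.04 and from -0.40 to 0.01, with standard errors of 0.24 to 0.29. At stage 2 Aa_G137910 passed with the replicate number as a block in the compared groups alone (edgeR adjusted p = 0.0358), as did Aa_G438190 (edgeR adjusted p = 0.0153).

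The members called lower in buds were also SAUR family proteins. At stage 3 Aa_G752220 had 7, 10 and 10 counts in buds and 36, 34 and 25 in meristems (log2 -1.78, SE 0.40, edgeR adjusted p = 0.00109). Aa_G64780 had 21, 22 and 13 in buds and 22, 33 and 53 in meristems (log2 -1.01, SE 0.38, edgeR adjusted p = 0.0359). That call was lost in the compared groups alone without and with the replicate block (edgeR adjusted p = 0.128 and 0.136), without replicate 2 or 3 of SAM stage 3 (edgeR adjusted p = 0.0508 and 0.375) and without replicate 1 or 3 of AB stage 3 (edgeR adjusted p = 0.0692 and 0.12). At stage 2 the same gene was higher in buds (log2 1.83, SE 0.42, edgeR adjusted p = 0.00163). Of the 9 SAUR family proteins tested, 2, 5 and 3 were called higher in buds at stages 1 to 3 and 0, 0 and 2 lower. Of the 22 SAUR-like members tested, among 46, 22, 19 and 19 were called higher and 0, 0 and 0 lower. Over all genes tested, 18.2%, 19.9% and 22.1% were higher and 14.6%, 17.6% and 22.1% lower. A member can pass the filter through bud libraries alone, so these counts do not compare the kinds of description.

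The change over time was also tested for a difference between the tissues. From stage 1 to 2 the number called was 0 (all genes 0.0327% higher and 0.0654% lower), and 0 by DESeq2. At unadjusted p below 0.05 there were 3 members and 1555 of 21414 genes. From stage 2 to 3 it was 1 (all genes 2.66% and 2%). This was Aa_G64780, which went from 0.511 ± 0.188 to 2.6 ± 1.62 CPM in meristems and from 1.83 ± 0.382 to 1.26 ± 0.297 CPM in buds (change in buds minus change in meristems log2 -2.85, SE 0.57, edgeR adjusted p = 0.00665). From stage 3 to 4, 7 members changed more downward in buds than in meristems and 0 more upward (all genes 15.1% and 14.7%). At unadjusted p below 0.05 there were 12 and 0, and in either direction 8685 of 21414 genes, a share near that of the members. DESeq2 called 10 and 0. One edgeR call was Aa_G353920 (log2 -3.93, SE 0.80, edgeR adjusted p = 0.00108), whose meristem means were 0.537 ± 0.286 and 0.664 ± 0.304 CPM. These comparisons share libraries, so their calls are not independent of each other.

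Genes of the wider auxin and growth pathway were grouped by their descriptions, and counts of edgeR calls are given for buds against meristems at stages 1, 2, 3 and 4 in turn. Over all genes tested, the shares higher were 18.2%, 19.9%, 22.1% and 1.35% and the shares lower 14.6%, 17.6%, 22.1% and 2.12%. Any link between these lists and the SAUR result was not tested. The Aux/IAA repressors, themselves early auxin response genes, had 8, 9, 12 and 0 of 22 tested higher and 4, 5, 2 and 2 lower. GH3 enzymes, which conjugate auxin to amino acids, had 6, 7, 9 and 2 of 16 higher and 1, 2, 0 and 0 lower. The median log2 difference over the tested genes at stages 1 to 4 was 0.21, 0.00, 0.85 and 0.02 for Aux/IAA and 0.47, 0.71, 1.48 and -0.01 for GH3. Aa_G423890, described as IAA7, had means of 21.4 ± 7.85 CPM in buds and 0.102 ± 0.112 CPM in meristems at stage 3 (log2 7.51, SE 1.15, edgeR adjusted p = 8.88e-05).

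Among other auxin genes, the ARF transcription factors had 5, 3, 4 and 1 of 15 higher and 4, 6, 5 and 1 lower, and auxin transport genes 4, 5, 6 and 0 of 15 higher and 3, 6, 4 and 3 lower. Auxin synthesis genes, found mostly as flavin monooxygenases, had 5, 4, 3 and 1 of 12 higher and 2, 2, 2 and 1 lower. Of 2 TIR1/AFB receptors, 0, 0, 1 and 1 were higher and 1, 0, 0 and 0 lower. ARF5 (Aa_G329270), which acts in organ initiation in Arabidopsis, rose in buds from 220 ± 32.2 CPM at stage 3 to 663 ± 88.3 CPM at stage 4 (log2 1.60, SE 0.11, edgeR adjusted p = 1.49e-09).

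Plasma membrane proton pumps had 2, 5, 5 and 1 of 9 higher and 0, 0, 0 and 0 lower, and expansins had 7, 9, 8 and 2 of 14 higher and 0, 1, 1 and 0 lower. Type 2C phosphatases, of all clades, had 16, 14, 18 and 0 of 55 higher and 6, 5, 3 and 2 lower. Transcription factors of the PIF and BZR families, which induce SAUR genes in Arabidopsis, had 4, 5, 7 and 1 of 7 higher and 0, 0, 0 and 0 lower. From AB stage 3 to 4, 5 of the proton pumps, 9 of the expansins and 7 of the PIF and BZR genes fell, while 1, 1 and 0 rose. Of all genes tested, 24.2% fell and 23% rose. In the same step 12 Aux/IAA genes, 6 GH3 genes and 23 type 2C phosphatases fell and 2, 1 and 7 rose. The remaining lists were more even, with 4 ARF, 5 auxin transport and 2 auxin synthesis genes lower and 5, 4 and 2 higher. Of the TIR1/AFB receptors 0 fell and 0 rose.

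Expansin A5 (Aa_G486860) was at 16.9 ± 7.57 CPM in AB stage 3, 0.979 ± 0.306 CPM in SAM stage 3 and 1.19 ± 0.355 CPM in AB stage 4. The difference was log2 4.11, SE 0.46, edgeR adjusted p = 2.95e-06 between tissues and log2 -3.82, SE 0.44, edgeR adjusted p = 3.45e-06 between bud stages. The proton pump Aa_G620370, described as H(+)-ATPase 2, went from 213 ± 44.5 CPM in AB stage 3 to 82.3 ± 6.82 CPM in AB stage 4 (log2 -1.37, SE 0.16, edgeR adjusted p = 1.48e-06). Aa_G262260, described as PIF4, went from 21.4 ± 4.31 to 2.31 ± 0.344 CPM (log2 -3.21, SE 0.32, edgeR adjusted p = 3.59e-07).

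Markers of other cell types were read in the same way for buds against meristems at stages 1 to 3. Over all genes tested, 18.2%, 19.9% and 22.1% were higher in buds and 14.6%, 17.6% and 22.1% lower. The 44 photosynthesis genes summed to 9921 to 12661 TPM in buds and to 10934 to 18108 TPM in meristems, and 21, 18 and 17 of 36 tested were lower in buds and 3, 2 and 3 higher. The vascular list had 4, 5 and 3 of 10 higher and 0, 1 and 0 lower. The stomatal lineage list had 2, 2 and 1 of 9 higher and 3, 3 and 2 lower, and the shoot epidermis list 1, 1 and 1 of 5 higher and 2, 1 and 1 lower. The trichome list, which caught mostly trichome birefringence-like genes, had 9, 10 and 9 of 28 higher and 4, 3 and 2 lower. Their part in the SAUR result was not tested.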

How the data were processed

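RNA of axillary buds and meristems was read from 1 end of each fragment, over 150 bp. The deposited counts are total mapped reads per gene and library, per the file headers, and the deposited TPM values were scaled by the authors to gene length and library, per the file headers. The submitters' processing notes name FastQC, and the aligner, counter, strand and treatment of reads that match several genes are not given in the sources used here. Coordinates are those of version 4 gene models placed on the version 5 assembly by protein alignment, per the file headers. Another 46 columns of values by library were not used.

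Counts were tested with edgeR 4.0.16 in R 4.3.3 (TMM scaling, filterByExpr by group with a minimum count of 10 and a minimum total of 15, robust quasi-likelihood fit), with 1 coefficient per tissue and stage over all 23 libraries. P-values were Benjamini-Hochberg adjusted over all 21414 genes tested, in 13 comparisons. The procedure was run on simulated counts with the same fixed spread for every gene, for AB against SAM at stage 3. That run does not show how the test performs with the wide replicate spread and groups at 0 seen among SAUR members. CPM values are per TMM-scaled library size and are used within a gene or for sums, while levels of different genes are compared in TPM. A group at 0 was set to a floor of 3 counts over the group, and with 1 to 3 counts the ratio is given with an exact binomial 95% interval (counting error only). Alternatives were DESeq2 1.42.0, RLE size factors, no filter, only the groups compared, the replicate number as a block, and each library left out. Ratios of summed CPM without a library were added after seeing the data. Replicates are pools of buds or meristems; nothing in the labels says that they came from separate plantings, so p-values measure the spread between these pools.

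Same-numbered libraries deviated together, with every correlation above 0.1, for buds against meristems at stage 2 (0.155 to 0.254) and stage 3 (0.134 to 0.19), so the numbers were taken to pair those libraries. Members named are the 10 of highest mean TPM, up to 10 of largest change per comparison among those called, up to 15 called at stages 1 to 3, any with 2 or more called differences between tissues over time and, per pathway list, up to 2 called genes, of which a few are printed. The members and the gene lists were chosen with earlier results of these data known. Lists were matched by words in the descriptions.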

Additional observations from a re-analysis of the deposited data

Results flagged for a closer look

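Several results are listed because the change over time in buds differed from that in meristems when the difference itself was tested. Values are the log2 change in buds minus that in meristems. From stage 2 to 3 the value of Aa_G64780 was -2.85 (SE 0.57, edgeR adjusted p = 0.00665, 0.000598 to 0.0278 over 17 alternatives). From stage 3 to 4 it was -3.93 (SE 0.80, edgeR adjusted p = 0.00108, 5.04e-05 to 0.00464 over 17 alternatives) for Aa_G353920 and -5.71 (SE 1.27, edgeR adjusted p = 0.00234, 0.000208 to 0.00858 over 17 alternatives) for Aa_G465020. These 3 calls were made under every alternative tried.

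The other values from stage 3 to 4 were called less steadily. Aa_G85810 had -7.63 (SE 2.60, edgeR adjusted p = 0.033, 0.0018 to 0.132 over 17 alternatives) and lost its call under 4 alternatives. Aa_G759390 had -5.45 (SE 1.94, edgeR adjusted p = 0.0389, 0.0145 to 0.13 over 17 alternatives) and lost it under 8, and Aa_G314280 had -4.59 (SE 1.60, edgeR adjusted p = 0.0362, 0.00666 to 0.19 over 17 alternatives) and lost it under 8. For Aa_G253730 the value was -8.60 (SE 3.10, edgeR adjusted p = 0.0452, 0.0173 to 0.99997 over 17 alternatives), lost under 10. Aa_G443460 had -2.78 (SE 0.98, edgeR adjusted p = 0.0375, 0.0221 to 0.124 over 17 alternatives), lost under 9. Aa_G85810 had no count in SAM stage 3 and Aa_G253730 none in AB stage 4 and SAM stage 3, so their fitted sizes depend on the prior count and are not folds. Other sizes rest on few counts too. Aa_G465020 had 2 counts over SAM stage 3, and Aa_G314280 had 3 over AB stage 4. Aa_G759390 had 1 over AB stage 4 and 2 over SAM stage 3.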

How the results depend on the processing

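No result reversed. DESeq2 called 1 member in place of 2 in buds from stage 2 to 3 and 1 in place of 0 in meristems from stage 1 to 2. The number of members expressed was 16 at 5 TPM and 26 at 10 counts in every library of a group, in place of 42. With each library left out in turn, 15 to 24, 21 to 24, 17 to 23 and 0 to 1 members were called between buds and meristems at stages 1 to 4. In buds the ranges were 0 to 0, 0 to 2 and 17 to 22 for the steps in order, in meristems 0 to 0, 5 to 7 and 1 to 1, and for the difference between tissues 0 to 0, 1 to 2 and 2 to 7. The count for that difference from stage 3 to 4 fell from 7 to 2 without replicate 2 of AB stage 4, to 3 without replicate 3 of SAM stage 3, and to 4 without replicate 1 or 2 of AB stage 3, replicate 3 of AB stage 4, or replicate 1 or 2 of SAM stage 4. From stage 2 to 3 it was 2 without replicate 3 of AB stage 3 or replicate 1 of SAM stage 2. Under every alternative, 14 of 24, 18 of 24, 15 of 24 and 0 of 1 calls between tissues were made again at stages 1 to 4, and 16 of 21 in buds from stage 3 to 4. The cause of these shifts was not tested.

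With the replicate number as a block, 23, 24, 22 and 1 members were called between tissues at stages 1 to 4, 20 in buds from stage 3 to 4 and 9 for the difference from stage 3 to 4. With only the compared groups in the blocked fit, chosen after seeing the data, the counts were 26 at stage 2 and 21 at stage 3. Where the numbers pair the libraries, at stages 2 and 3, the blocked fits changed the calls given in the report and that of Aa_G443460 at stage 3 (edgeR adjusted p = 0.0709), and no other. Elsewhere the libraries share only a number. Of 112 calls of single members, DESeq2 lost 13, no filter 2, only the compared groups 13 and RLE size factors none.

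Over all genes, the number called at AB against SAM stage 4 was 743, against 1127 by DESeq2, 1385 with only the compared groups and 373 to 587 with a library left out. In buds from stage 1 to 2 it was 249, against 400 by DESeq2, 144 with only the compared groups, 29 without replicate 1 of AB stage 1 and 57 without replicate 1 of AB stage 2. In buds from stage 2 to 3 only the compared groups gave 2796 in place of 4764, and at AB against SAM stage 1 leaving out replicate 2 of AB stage 1 gave 4294 in place of 7016. With a library left out, meristem steps gave 537 to 1744 in place of 1623 from stage 1 to 2 and 1054 to 1847 in place of 1965 from stage 3 to 4. For the difference between tissues, 21 calls from stage 1 to 2 became 38 with the block, 117 by DESeq2 and 7 to 96 with a library left out, and 997 from stage 2 to 3 became 1574 by DESeq2 and 563 to 1278. Most SAUR genes have few counts, which limits the precision of each value, and a member at 0 may be below detection at this depth.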
